A study of Mus musculus with 6 samples.

Results

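The cells described here are the pre-granulosa cells of the fetal mouse ovary that were selected on their transcripts of *Foxl2* and *Fst*. They were taken from single cell mRNA sequencing of E15.5 gonads from 3 groups, control XX (ovary) and control XY (testis), both Amh+/+; Inhbb+/+, and dKO XY (testis), Amh-/-; Inhbb-/-. There were 2 libraries per group, each from the cryopreserved cells of the gonad pair of 1 embryo. Cells were kept if they had over 2500 but under 9000 detected genes, with mitochondrial transcripts below 25% and *Hbb* transcripts below 20%, which left 39350 cells in the 6 libraries and 10111 in the control XX libraries. A cell was a member when it came from a control XX library, had at least 300 CPM of *Foxl2* and *Fst* together, at most 1 UMI of *Lgr5*, fewer than 5 UMIs of *Dazl* and fewer than 2 UMIs of *Upk3b*. A UMI is 1 counted transcript molecule, and CPM gives the UMIs of a gene relative to all UMIs of the cell, or of the summed cells, on the usual counts-per-million scale. By this rule 2240 cells were members, 1520 of 5330 kept cells (28.5%) in control XX replicate 1 and 720 of 4781 (15.1%) in replicate 2. The same gate took 150 and 107 cells in dKO XY (1.84% and 1.88%), and 9 and 10 cells in control XY.

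Pre-granulosa cells are the supporting cells of the fetal ovary and the female counterpart of Sertoli cells. They arise from the same bipotential somatic precursors, enclose the germ cells, and later become the granulosa cells of the follicles. The forkhead transcription factor FOXL2 and the WNT4 and RSPO1 signals hold the female program. Follistatin, the product of *Fst*, binds and neutralizes activins. Several waves of pre-granulosa cells are known in the mouse ovary, among them a later one that carries the R-spondin receptor LGR5. *Lgr5* served here to set such cells aside, *Dazl* to set aside germ cells and *Upk3b* the surface epithelium. Because *Foxl2*, *Fst*, *Lgr5*, *Dazl* and *Upk3b* chose the members, their levels are a description. The same holds for each comparison of members with other cells of the ovary.

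The members carried the 5 markers by which they are known. *Foxl2* (GRCm38 chromosome 9, 98955288 to 98958543, plus strand) was at 314 CPM in the members of replicate 1 and 264 CPM in those of replicate 2. *Fst* (chromosome 13, 114452290 to 114458951, minus strand) was at 1330 and 1146 CPM. The 3 markers that the rule did not use were also present in both libraries. *Irx3*, an Iroquois homeobox factor (chromosome 8, 91798525 to 91802067, minus strand), was at 281 and 356 CPM. *Gng13*, a G protein gamma subunit (chromosome 17, 25717171 to 25719406, plus strand), was at 365 and 536 CPM. *Cdkn1b*, the CDK inhibitor p27 (chromosome 6, 134920401 to 134925513, plus strand), was at 720 and 748 CPM. *Xist*, the transcript of the inactive X chromosome, was detected in 98.0% and 99.4% of the members.

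The gate was not met in the same way by every member. The median of *Foxl2* and *Fst* together was 1502 CPM in replicate 1, with a range from 301 to 9018 CPM, and 1190 CPM in replicate 2, with a range from 302 to 6033 CPM. Both genes had a UMI in 91.6% and 82.6% of the members. *Foxl2* had none in 103 members of replicate 1 (6.78%) and 112 of replicate 2 (15.6%), and *Fst* had none in 24 and 13. Members just inside the gate, between 300 and 350 CPM, numbered 28 and 19. They had 466 and 249 CPM of the collagen gene *Col1a1*, whereas the 43 and 30 cells just outside, between 250 and 300 CPM, had 422 and 717 CPM. *Sox9* was at 161 and 39.9 CPM just inside and at 86.8 and 50.4 CPM just outside, and *Cdkn1b* at 242 and 350 CPM inside and 240 and 275 CPM outside.

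The libraries differed in depth, and a member held a median of 21186 UMIs in replicate 1 and 16859 in replicate 2. Over the 3671 genes of at least 50 CPM in either library, the summed CPM of the 2 sets of members differed by over 2-fold for 11 genes (0.3%), with a median absolute log2 ratio of 0.178. Transcripts of other cell types were also found in the members. At least 100 CPM of the stromal genes *Pdgfra* and *Tcf21* was found in 83 members of replicate 1 (5.46%) and 142 of replicate 2 (19.7%). The 7 endothelial markers summed to 17.2 and 23.2 CPM, the 8 immune markers to 1.28 and 1.98 CPM, the 9 germ cell markers to 95.6 and 127 CPM, the 9 stromal markers to 815 and 925 CPM and the 7 erythroid markers to 586 and 693 CPM. Between 4 and 25 cell barcodes were shared by any 2 libraries of the series, at most 0.307% of the smaller one. The labels do not say which embryos shared a litter, and p-values measure the spread between these libraries.

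The markers were then read in the other cells of the 2 ovary libraries. The closest cells were those with at least 2 UMIs and 100 CPM of *Lgr5*, called *Lgr5* cells here, which numbered 1036 and 258. Of them, 954 (92.1%) and 225 (87.2%) would also have met the *Foxl2* and *Fst* threshold, so that the 2 sets differ by *Lgr5* rather than by *Fst*. *Foxl2* was at 119 and 95.3 CPM in the *Lgr5* cells, against 314 and 264 CPM in the members. *Fst* was nearly as high in *Lgr5* cells as in members, at 1142 and 986 CPM. *Gng13* was at 1508 and 2000 CPM in *Lgr5* cells, and *Irx3* at 470 and 582 CPM, so both of these markers had their higher level outside the members. *Cdkn1b* was at 578 and 626 CPM in *Lgr5* cells.

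**Figure D1:**
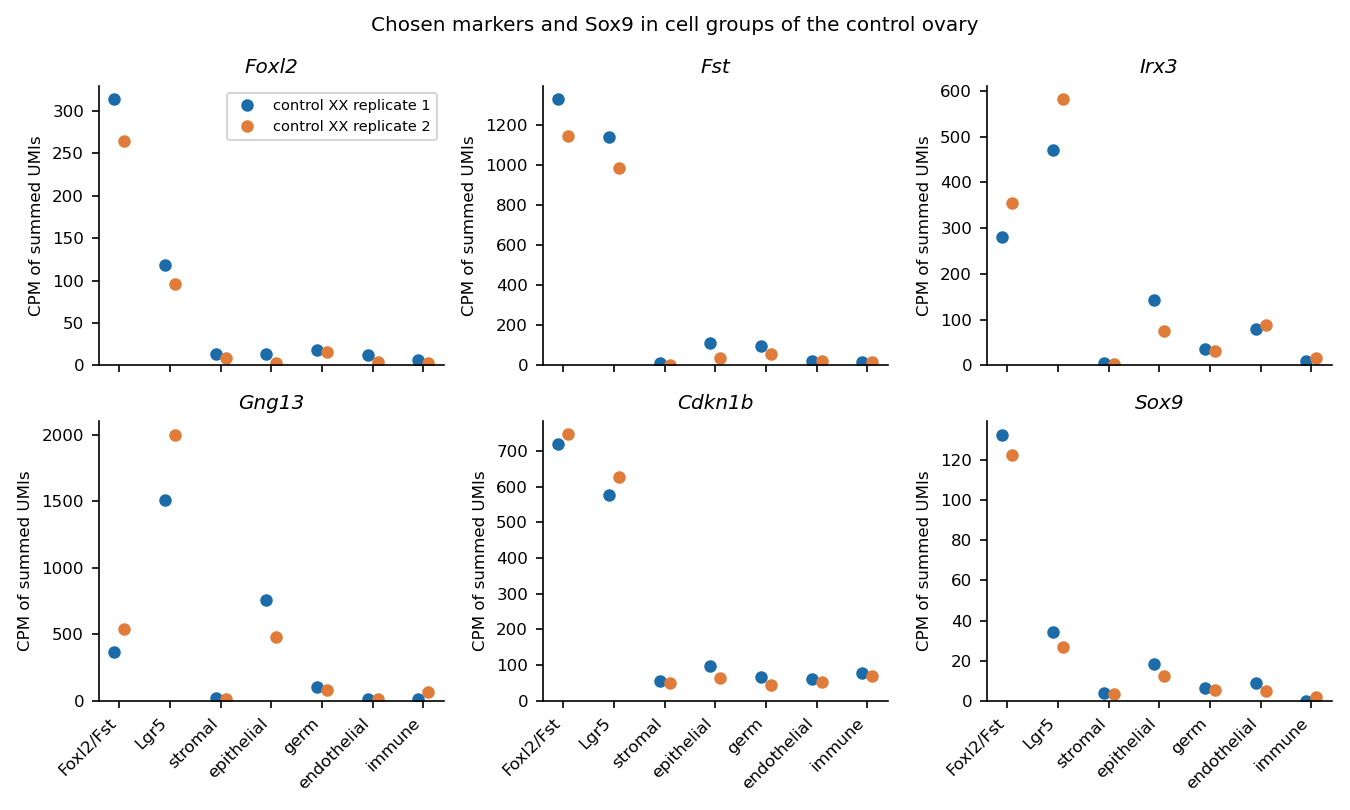
Level of the 5 markers and *Sox9*, in CPM of summed UMIs on a linear axis, with 1 point per library. The cells are the members and the other gated cells of the control XX ovary. *Gng13* was at 1508 and 2000 CPM in *Lgr5* cells and at 365 and 536 CPM in members, whereas *Sox9* was highest in the members, at 133 and 123 CPM.

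*Sox9*, which encodes the transcription factor of Sertoli cell differentiation (chromosome 11, 112782224 to 112787760, plus strand), was at 133 and 123 CPM in the members. In the *Lgr5* cells it was at 34.3 and 26.9 CPM. The other ovary cells were lower still, with 18.4 and 12.5 CPM in the epithelium, 8.62 and 4.97 CPM in endothelial cells, 6.53 and 5.51 CPM in germ cells and 3.78 and 3.33 CPM in the stroma. After every cell was thinned to 5000 UMIs, 27.5% and 28.1% of the members had a UMI of *Sox9*. Without thinning the shares were 49.2% and 44.6%. The thinned share was 8.98% and 8.91% in *Lgr5* cells, 4.0% and 5.26% in endothelial cells and 1.79% and 1.46% in the stroma. The part of free RNA in these shares was not tested. The endothelial cells were deeper than the members, with medians of 30744 and 29036 UMIs. *Aard*, another gene of the Sertoli list, was at 261 and 274 CPM in the members and at 93.3 and 94.8 CPM in *Lgr5* cells. Of the other genes of that list, *Ptgds* was at 58.3 and 43.9 CPM and *Mro* at 33.2 and 38.6 CPM in the members, whereas *Dhh* was at 0.681 and 0.529 CPM, *Dmrt1* at 0.409 and 0.331 CPM, and *Sox10* had no UMI.

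Across 3412 genes with at least 50 CPM in the members or in the *Lgr5* cells of both libraries, 47 were at least 2-fold higher in the members in both libraries (1.38%), and 25 were at least 2-fold lower (0.733%). The rule used this contrast, so nothing is read from these counts. *Ramp1*, a receptor activity-modifying protein, ranked first by the smaller of its ratios in the 2 libraries, with 69.2 and 55.4 CPM in members and 9.21 and 9.68 CPM in *Lgr5* cells. *Shtn1*, *Plk2* and *Etl4* were also among the 10 highest. The collagen gene *Col3a1*, also among them, was at 536 and 455 CPM in the members and at 119 and 113 CPM in *Lgr5* cells, *Thbs1*, thrombospondin 1, at 175 and 143 CPM against 24.2 and 37.4 CPM, and *Col6a2* at 104 and 101 CPM against 24.97 and 28.1 CPM. *Col3a1* was at 2363 and 2077 CPM in the stroma, whereas *Ramp1* was at 7.32 and 6.02 CPM there. The homeobox gene *Msx1* was at 92.8 and 103 CPM in the members and at 18.7 and 28.4 CPM in *Lgr5* cells.

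The 10 genes with the lowest ratio to the *Lgr5* cells included *Gng13*, *Bmp2*, *Ly6d* and *Mt1*. *Bmp2*, a ligand of the BMP pathway, was at 35.6 and 44.7 CPM in members and at 152 and 157 CPM in *Lgr5* cells. *Ly6d* was at 13.0 and 10.9 CPM against 92.8 and 56.2 CPM. The metallothionein gene *Mt1* was at 201 and 243 CPM against 721 and 835 CPM. The other 6 of these 10 were *Svs5*, *Bace2*, *Serpini1*, *Glul*, *Mhrt* and the transcript RP23-102H7.8. *Lhx9*, a LIM homeobox factor of the early gonad, was not among these 10 but was at 102 and 113 CPM in members and at 254 and 260 CPM in *Lgr5* cells.

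The stroma, gated on *Pdgfra* and *Tcf21* and on low *Foxl2* and *Fst*, held 1285 and 2737 cells. Of 3689 genes, 509 were at least 2-fold higher in the members in both libraries (13.8%) and 329 at least 2-fold lower (8.92%), again a contrast that the rule used. The 10 highest ratios included *Irx3*, the clock-related repressor gene *Bhlhe41*, the WNT ligand gene *Wnt6*, the retinaldehyde dehydrogenase gene *Aldh1a1*, *Gstm6*, *Pla2g1b*, *Shtn1*, *Wfdc10* and *Spink4*. *Wnt6* was at 765 and 771 CPM in the members and at 19.4 and 9.16 CPM in the stroma. *Bhlhe41* was at 187 and 229 CPM against 2.67 and 1.30 CPM. The 10 lowest were *Syt1*, *Acta2*, *Sfrp1*, *Tcf21*, on which the stroma was gated, *Lum*, *Dcn*, *Col1a1*, *Mfap4*, *Osr1* and *Dnm3os*. *Dcn*, decorin, was at 25.5 and 51.4 CPM in the members and at 748 and 805 CPM in the stroma.

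The members were not uniform. They differed in the balance of *Foxl2* and *Fst*, and the share of *Foxl2* among the UMIs of both genes was used to order the members with at least 10 such UMIs. This split was chosen after values were seen and carries no test. The share was under 10% in 406 and 172 members, between 10% and 30% in 611 and 248, and at least 30% in 348 and 129. The remaining 155 and 171 members had fewer than 10 UMIs of both genes together. Depth was similar along this order, with median UMIs of 23191, 21677 and 20768 in replicate 1 and 18008, 19742 and 19737 in replicate 2. Of 3466 genes with at least 50 CPM at the higher end in both libraries, 55 were at least 2-fold higher and 40 at least 2-fold lower in the *Foxl2*-rich than in the *Fst*-rich members of both libraries.

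*Sox9* followed *Foxl2* along this order. It was at 49.6, 147 and 193 CPM in replicate 1 and at 52.3, 120 and 232 CPM in replicate 2, from the lowest to the highest share of *Foxl2*. *Ramp1* was at 15.1, 60.3 and 139 CPM in replicate 1 and at 14.98, 56.4 and 112 CPM in replicate 2. *Thbs1* was at 57.3, 142 and 332 CPM and at 56.0, 130 and 288 CPM. These 3 genes, all among the 10 with the highest ratio to the *Lgr5* cells, had the same order in both libraries. The collagen XVIII gene *Col18a1* was at 123, 279 and 462 CPM in replicate 1 and at 71.7, 166 and 260.2 CPM in replicate 2.

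Another set of genes went with *Fst*. *Gng13* was at 786, 284 and 95.8 CPM in replicate 1 and at 889, 376 and 234 CPM in replicate 2, so that one of the 5 markers was low in the *Foxl2*-rich members. The calcium-binding protein gene *Calb1* was at 79.4, 23.8 and 2.25 CPM and at 145, 55.6 and 19.9 CPM. *Bmp2* was at 70.0, 29.2 and 7.72 CPM and at 74.1, 33.0 and 19.3 CPM. *Lhx9* was at 178, 90.4 and 44.9 CPM and at 161, 109 and 52.0 CPM. *Cdkn1c*, the CDK inhibitor p57, was at 2169, 1240 and 817 CPM and at 2207, 1318 and 934 CPM. The *Fst*-rich members therefore lay nearer to the *Lgr5* cells in *Gng13*, *Bmp2* and *Lhx9*. *Rspo1* varied little, at 255, 249 and 233 CPM in replicate 1 and 244, 212 and 240 CPM in replicate 2, and *Kitl* was at 821, 922 and 891 CPM and at 760, 868 and 865 CPM.

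**Figure D2:**
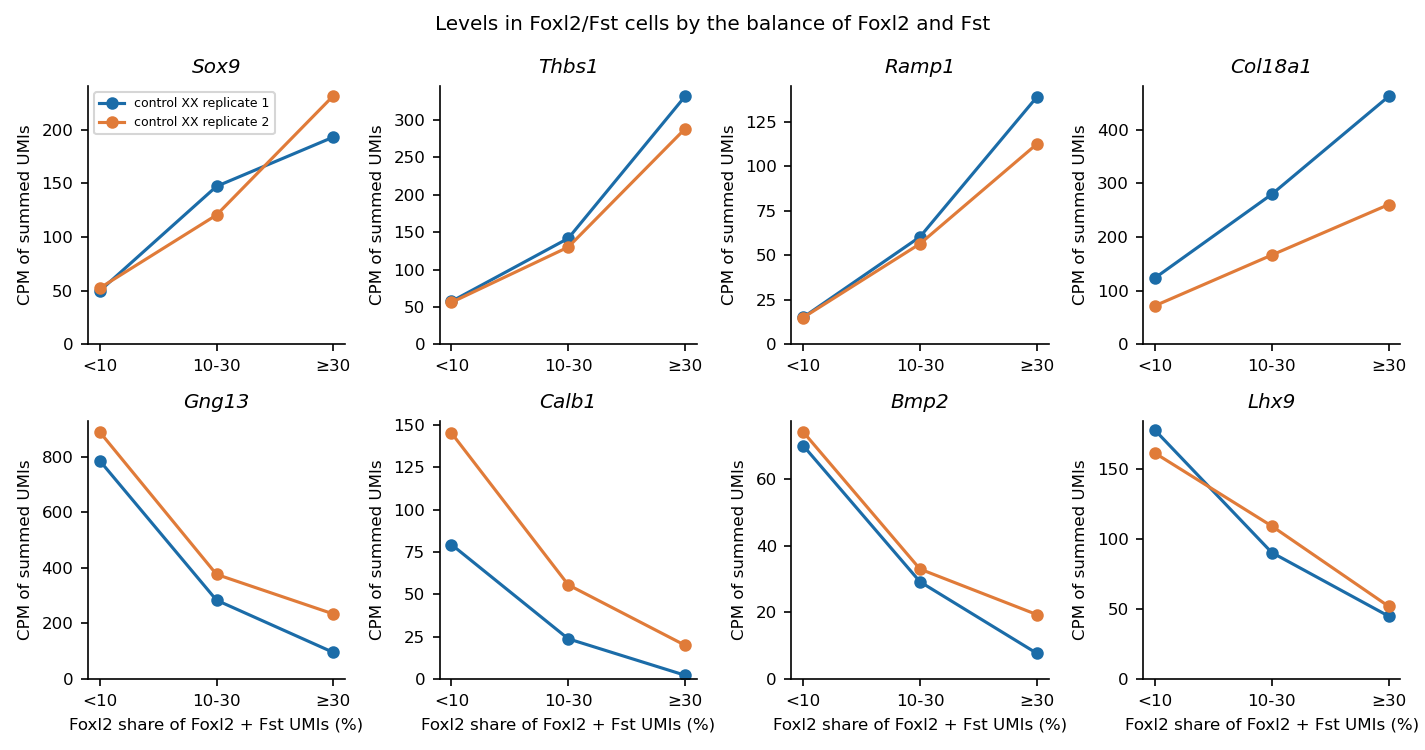
Summed CPM of 8 genes, on a linear axis with 1 line per library. Members are grouped by the share of *Foxl2* among their *Foxl2* and *Fst* UMIs. *Sox9* lay at 49.6 and 52.3 CPM below a share of 10% and at 193 and 232 CPM from 30% upwards, whereas *Gng13* went from 786 and 889 CPM to 95.8 and 234 CPM.

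The same genes separated members without *Lgr5* (1116 and 549) from those with the 1 permitted UMI (404 and 171). *Gng13* was at 268 and 417 CPM without and at 623 and 896 CPM with that UMI, whereas *Sox9* was at 147 and 131 CPM without and at 95.2 and 97.5 CPM with it. Members with more *Foxl2* and *Fst* together had fewer stromal and mitotic transcripts. In members under 600 CPM (188 and 116 cells), *Col1a1* was at 159 and 342 CPM, *Igfbp5* at 694 and 500 CPM and the proliferation marker gene *Mki67* at 27.9 and 23.2 CPM. In those with at least 2000 CPM (510 and 143 cells), *Col1a1* was at 7.50 and 10.3 CPM, *Igfbp5* at 109 and 96.6 CPM and *Mki67* at 5.51 and 2.48 CPM. *Cdkn1b* was at 380 and 478 CPM under 600 CPM and at 886 and 1038 CPM from 2000 CPM upwards, and *Kitl* at 611 and 519 CPM and at 1033 and 1090 CPM. The part of stromal RNA in the low members was not tested.

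The share of members in cycle depended on the definition. A cell was counted as cycling when it held at least 2 UMIs of *Mki67*, *Top2a*, *Cdk1*, *Ccnb1*, *Ube2c* and *Birc5* after thinning to 5000 UMIs, to which no member was too shallow. This gave 57 of 1520 members (3.75%, 95% exact binomial interval 2.85% to 4.83%) in replicate 1 and 96 of 720 (13.3%, 10.9% to 16.0%) in replicate 2. These intervals cover counting error only, and the 2 libraries differed by more than their intervals allow. With at least 1 UMI in place of 2 the thinned shares were 18.1% and 27.6%, and with 2 UMIs but no thinning they were 22.4% and 31.5%. In the same libraries the share was 2.61% and 7.36% in *Lgr5* cells, 28.3% and 31.5% in the stroma, 30.8% and 47.6% in the epithelium and 23.1% and 39.8% in endothelial cells. In each of these cell groups replicate 2 had the higher share. The share calls can also hold free RNA, whose part was not tested. Within each library, the members and the *Lgr5* cells lay below the 3 other somatic groups.

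**Figure D3:**
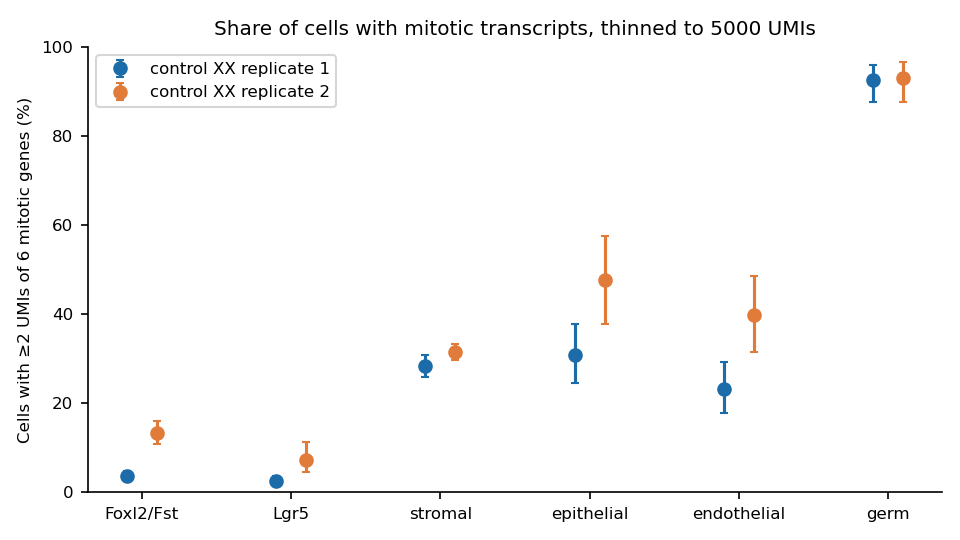
Percent of cells with at least 2 UMIs of 6 mitotic genes after thinning to 5000 UMIs, by cell group and library of the control XX ovary. Error bars are 95% exact binomial intervals. The members were at 3.75% and 13.3% and the stroma at 28.3% and 31.5%.

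The members were next compared with Sertoli cells of control XY, which asks how far the supporting cells of the 2 sexes differ at E15.5. Cells with at least 500 CPM of *Amh* were taken as Sertoli cells (230 and 486 cells). UMIs were summed over the cells of each library and tested with edgeR. Of 14140 genes tested, 3550 were higher in the members (25.1%) and 3426 lower (24.2%) at an adjusted p under 0.05, with a median log2 fold change of 0.02. The cells of one sex were picked for *Foxl2* and *Fst* and those of the other for *Amh*, so genes that vary together with these within a sex are favoured. *Foxl2*, *Fst*, *Lgr5*, *Dazl*, *Upk3b* and *Amh* were not tested for that reason. Log2 fold changes include TMM scaling, so that they differ a little from the ratio of the CPM given beside them.

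All 7 granulosa markers tested were higher in control XX, with a median log2 fold change of 6.13. The list and the gates were chosen with earlier results of these data known, so these tests are no independent support. *Irx3* was at 281 and 356 CPM in the members and at 1.51 and 0.801 CPM in Sertoli cells, a log2 fold change of 8.14 (SE 0.38, adjusted p = 3.29e-08). *Gng13* was at 365 and 536 CPM against 2.34 and 1.34 CPM (log2 fold change 7.95, adjusted p = 1.28e-08). *Cdkn1b* was at 720 and 748 CPM against 41.6 and 43.1 CPM (log2 fold change 4.03, SE 0.15, adjusted p = 7.91e-09). The smallest difference of this list was that of *Kctd14*, with 1870.0 and 1661 CPM against 814 and 803 CPM. In none of these 4 genes did the libraries of the sexes overlap. The share of such genes over all genes was not counted, so nothing is read from this.

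Of 12 transcription factor genes tested, 7 were higher and 2 lower in the members, against 25.1% and 24.2% of all genes. The median log2 fold change was 0.85. *Runx1*, which acts beside FOXL2 in granulosa cells, rose from 1.24 and 2.87 CPM in Sertoli cells to 196 and 142 CPM (log2 fold change 6.13, adjusted p = 2.73e-08). *Emx2*, a homeobox gene needed for the gonad to form, was at 248 and 206 CPM against 11.4 and 9.42 CPM. *Irx5* was at 12.01 and 12.97 CPM against 0 and 0.134 CPM, where Sertoli cells had 2 UMIs in all, a ratio of 137 with a counting interval from 37.7 to 1131. *Nr5a1*, the steroidogenic factor SF1, fell from 80.1 and 98.6 CPM to 41.1 and 39.1 CPM (log2 fold change -1.24, adjusted p = 0.000467). *Wt1*, a factor of both supporting lineages, was at 308 and 270.4 CPM against 203 and 232 CPM and was not called (adjusted p = 0.0867).

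The WNT and R-spondin list had 8 genes higher and 4 lower of 15, against 25.1% and 24.2% of all genes (median 2.42). The ligand genes *Wnt4* and *Rspo1* were far above Sertoli cells. *Wnt4* was at 578 and 533 CPM against 42.8 and 44.7 CPM (log2 fold change 3.58, SE 0.15, adjusted p = 1.64e-08). *Rspo1* was at 244 and 225 CPM against 2.61 and 1.87 CPM (log2 fold change 6.68, adjusted p = 3.82e-09). The R-spondin receptor gene *Lgr4* rose 5.35-fold. Of the genes that WNT signalling itself induces and that restrain or relay it, *Axin2*, *Nkd1*, *Sp5*, *Rnf43* and *Lef1*, rose 7.86-, 27.4-, 74.5-, 6.14- and 17.7-fold. *Znrf3*, another WNT-induced gene of the list that restrains the pathway, was called lower, at 16.2 and 12.8 CPM against 17.3 and 21.2 CPM (log2 fold change -0.50, adjusted p = 0.0414). That call was lost without control XX replicate 2 (adjusted p = 0.19), without control XY replicate 2 (adjusted p = 0.307), with the replicate block (adjusted p = 0.0542) and under 5 further settings. *Wnt5a* fell from 53.9 and 52.2 CPM to 12.4 and 14.4 CPM, and *Tcf7* from 43.8 and 42.2 CPM to 13.5 and 13.8 CPM. *Wnt6* was at 765 and 771 CPM in members and at 711 and 663 CPM in Sertoli cells (log2 fold change 0.07, adjusted p = 0.69).

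In the activin, inhibin and BMP list 7 of 19 genes were higher and 9 lower, against 25.1% and 24.2% of all genes (median -0.40). The subunit genes of activins and inhibins were lower in the members. *Inhba* was at 1.39 and 2.25 CPM against 78.0 and 57.9 CPM (log2 fold change -5.40, adjusted p = 6.74e-08), *Inhbb* at 43.0 and 25.5 CPM against 177 and 195 CPM, and *Inha* at 116 and 124 CPM against 556 and 627 CPM. *Amhr2*, the receptor gene of AMH, was at 331 and 369 CPM in the members and at 209 and 211 CPM in Sertoli cells (log2 fold change 0.65, adjusted p = 0.00303). *Bmp2* rose 11.4-fold and *Id3*, a gene that BMP signals induce, 4.19-fold, from 207 and 199 CPM to 733 and 1074 CPM. The inhibitory *Smad7* fell from 403 and 489 CPM to 113 and 133 CPM.

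Of the 12 genes of the Notch pathway, 3 were higher and 6 lower, against 25.1% and 24.2% of all genes (median -1.27). The ligand gene *Jag1* was at 1.63 and 2.91 CPM in the members and at 21.9 and 20.8 CPM in Sertoli cells (log2 fold change -3.41, adjusted p = 2.08e-06). The target gene *Heyl* fell 11.5-fold and *Lfng*, which modifies Notch receptors, 31.7-fold, but the target gene *Hes1* rose from 54.8 and 60.8 CPM to 189 and 229 CPM. The list did not move in one direction. The 6 pericyte markers, *Notch3* among them, summed to 57.8 and 83.3 CPM in Sertoli cells and 12.7 and 21.6 CPM in the members. The part of pericyte RNA in the Notch genes was not tested.

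Genes of S phase and mitosis were lower in the members, 11 of 12 with a median of -3.60, and none was higher. *Top2a* was at 21.5 and 24.4 CPM against 322 and 418 CPM in Sertoli cells (log2 fold change -4.10, SE 0.18, adjusted p = 1.56e-08), and *Mki67* at 11.8 and 13.9 CPM against 148 and 240.5 CPM. *Ccne2* was at 5.50 and 8.60 CPM against 10.0 and 6.01 CPM and was not called. Of 10 CDK inhibitor and D-type cyclin genes, 6 were higher and 2 lower, against 25.1% and 24.2% of all genes (median 1.17). *Cdkn1c* rose from 86.3 and 88.1 CPM to 1358 and 1478 CPM (log2 fold change 3.94, adjusted p = 1.20e-08), and *Cdkn1a*, which encodes p21, from 1.93 and 8.55 CPM to 40.9 and 46.7 CPM. The Ink4 inhibitor gene *Cdkn2c* fell 10.3-fold.

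**Figure D4:**
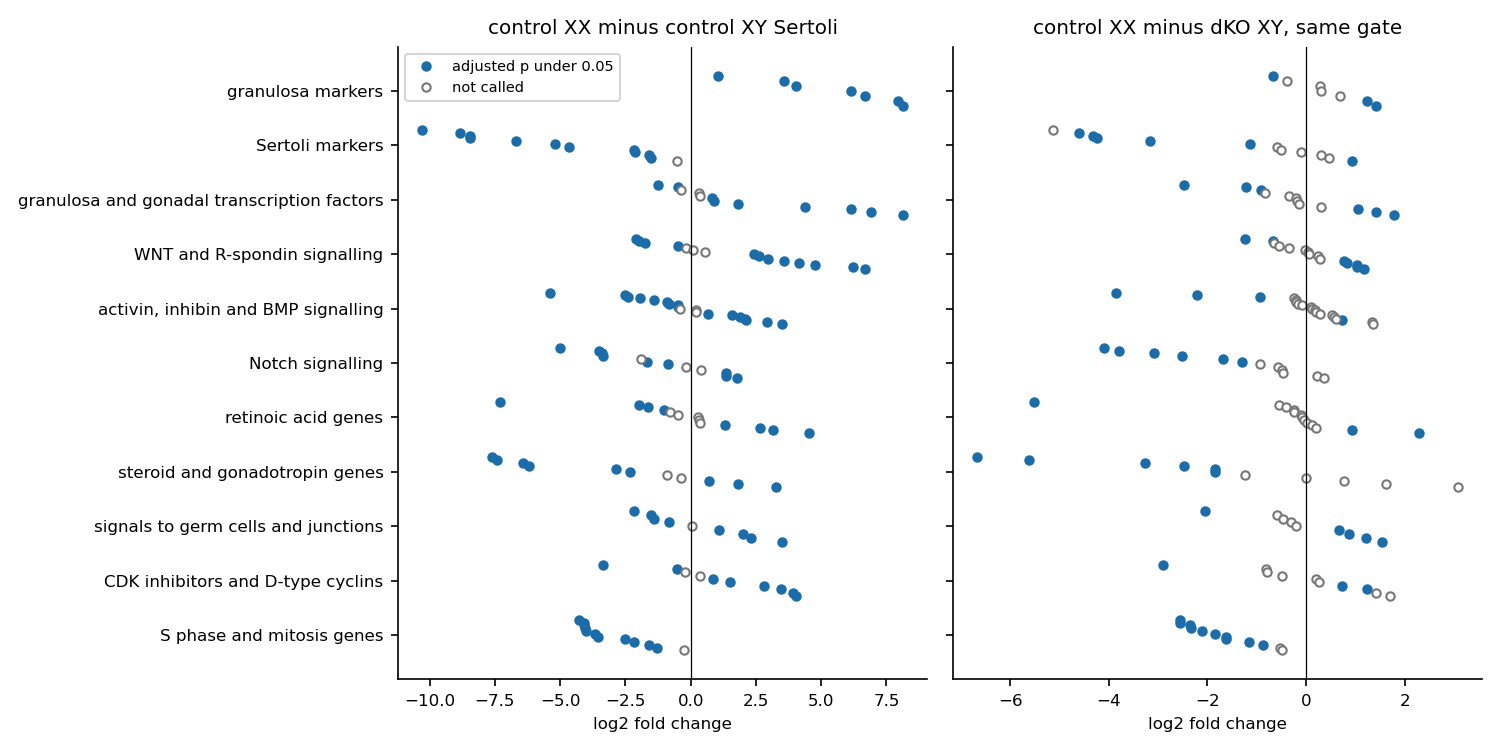
Log2 fold change of each tested gene of the functional lists, members minus control XY Sertoli cells and members minus dKO XY cells of the same gate, with filled points for genes called at an adjusted p under 0.05. The lists were chosen with earlier results of these data known. Against Sertoli cells all 7 granulosa markers lay above 0 and 11 of 12 S phase and mitosis genes were called below 0. Against dKO XY cells 10 of these 12 were called below 0.

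Genes of steroid metabolism and gonadotropin response were 3 higher and 6 lower of 11, against 25.1% and 24.2% of all genes (median -2.32). *Fshr*, the FSH receptor gene, had 1 UMI in all members and was at 5.23 and 4.34 CPM in Sertoli cells, a ratio of 240 (counting interval 42.1 to 9571). *Hsd17b1* fell from 307 and 251 CPM to 2.97 and 4.23 CPM. The estrogen receptor gene *Esr1* was at 14.1 and 12.5 CPM against 4.54 and 3.005 CPM. *Cyp11a1*, the enzyme that starts steroid synthesis, was at 1.72 and 1.26 CPM in members and 176 and 400.0 CPM in the Sertoli cells. Leydig markers, several of which are steroid genes themselves, summed to 594 and 1161 CPM in those Sertoli cells and to 77.3 and 65.5 CPM in the members. *Insl3*, a Leydig marker that is not in the steroid list, was at 40.45 and 51.7 CPM in the Sertoli cells and had 2 UMIs in the members. The part of Leydig cell RNA in the steroid genes was not tested. Of 13 retinoic acid genes, 4 were higher and 4 lower (median 0.29), near the shares of 25.1% and 24.2% over all genes. *Cyp26b1*, which degrades retinoic acid and protects male germ cells from entering meiosis, was at 0.218 and 0.529 CPM against 44.6 and 52.7 CPM (log2 fold change -7.32, adjusted p = 1.93e-06). *Dhrs3* and *Aldh1a2* rose 8.83- and 2.46-fold, whereas *Aldh1a1* fell 3.09-fold.

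Among 9 genes for signals to germ cells and for junctions, 4 were higher and 4 lower (median 0.06). Over all genes the shares were 25.1% and 24.2%. *Kitl*, the ligand of the KIT receptor on germ cells, was at 877 and 811 CPM in the members and at 199 and 196 CPM in Sertoli cells (log2 fold change 2.01, adjusted p = 8.59e-07). *Npr2*, the receptor gene of C-type natriuretic peptide, rose 4.93-fold and the ligand gene *Nppc* fell from 38.7 and 27.3 CPM to 3.05 and 13.9 CPM. *Gja1*, which encodes connexin 43, fell from 361 and 385 CPM to 151 and 148 CPM.

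The Sertoli list was lower in the members in 11 of 12 genes tested, with a median of -4.94. This list too was chosen with earlier results known, and the Sertoli cells were picked for *Amh*. *Sox9* itself was at 133 and 123 CPM in the members and at 375 and 353 CPM in Sertoli cells, a log2 fold change of -1.60 (SE 0.30, adjusted p = 0.00113). This was the smallest of the 11 falls but that of *Cldn11*, and the other SOX genes of the list were much lower. *Sox8* was at 2.67 and 2.12 CPM against 54.9 and 64.0 CPM. *Sox10* had no UMI in the members and was at 10.3 and 11.9 CPM in Sertoli cells, at least 197-fold lower against a floor of 3 counts over the members. *Dhh*, the hedgehog ligand of Sertoli cells, was at 0.681 and 0.529 CPM against 222 and 205 CPM (log2 fold change -8.46, adjusted p = 6.78e-10), and *Dmrt1* at 0.409 and 0.331 CPM against 40.5 and 36.3 CPM. *Fgf9* was at 5.20 and 5.36 CPM against 6.19 and 8.01 CPM and was not called (adjusted p = 0.134).

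The rule for the largest changes named further genes. *Msx1* had no UMI in the Sertoli cells and was at 92.8 and 103 CPM in the members, at least 709.8-fold higher. *Tnfrsf19* was at 160.0 and 142 CPM against 1.38 and 1.14 CPM, and the noncoding transcript *Rmst* at 78.3 and 99.0 CPM against 0.55 and 0.534 CPM. *Rec8*, which encodes a meiotic cohesin, was at 77.5 and 73.8 CPM against 0.55 and 1.20 CPM. Germ cells of the ovary had 94.5 and 50.7 CPM of *Rec8*, but the *Lgr5* cells had 87.2 and 87.6 CPM and the stroma 2.97 and 0.918 CPM. *Sycp3*, a meiotic gene of germ cells, was at 1774 and 2584 CPM in the ovarian germ cells, 32.7 and 52.6 CPM in members and 11.7 and 4.93 CPM in the stroma. On the other side, *Etd* had 2 UMIs in the members and was at 328 and 191 CPM in Sertoli cells, a ratio of 6121 (counting interval 1694 to 50550.0). *Hsd17b3*, *Tesc* and *Cst9* were at 0.626 and 0.661, 2.37 and 2.98, and 2.72 and 2.45 CPM in members and at 243 and 239, 621 and 667, and 1202 and 1031 CPM in Sertoli cells.

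The last comparison was with cells of the dKO XY gonads that met the same gate, which asks how close they came to the XX cells. All but 1 of these cells in each library (149 of 150 and 106 of 107) had a UMI of a Y-linked gene. In these cells *Amh* was at 10.8 and 12.1 CPM, against 2230.5 and 2057 CPM in control XY Sertoli cells. *Inhbb* was at 20.1 and 37.8 CPM, against 177 and 195 CPM in the Sertoli cells. The XX members, with an intact gene, had 43.0 and 25.5 CPM of *Inhbb*, and the difference from dKO XY was not called (adjusted p = 0.816). Tags from the 3′ end of either gene may lie outside the deleted part, which was not tested. The cells lay nearer to the threshold than the XX members, with medians of 584 and 542 CPM of *Foxl2* and *Fst* together. Within the XX members, *Cdkn1b* and *Kitl* rose and *Mki67* fell with that sum. A setting below caps that sum at 900 CPM on both sides, but its part in the differences was not otherwise tested. This comparison uses the same XX libraries as that with Sertoli cells. Of 14140 genes, 873 were higher in the XX members (6.17%) and 1487 lower (10.5%), with a median log2 fold change of 0.00. Without dKO XY replicate 2 the genes higher in XX numbered 501. With cells of at most 900 CPM on both sides, 536 were higher and 825 lower. There, 60 of the named genes checked kept their side of the threshold and 8 lost their call.

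The 2 dKO XY libraries held unequal amounts of RNA from other cells. The erythroid markers summed to 5334 and 36.8 CPM and the immune markers to 57.5 and 4.12 CPM in dKO XY replicates 1 and 2. The Leydig markers summed to 161 and 1045 CPM. Stromal markers were even, at 782 and 820 CPM in dKO XY and 815 and 925 CPM in the members. Without cells of at least 1000 CPM of haemoglobin transcripts, 905 genes were higher and 1494 lower. The Leydig marker sum holds *Cyp11a1*, *Cyp17a1* and *Star*, which are also in the steroid list. *Insl3*, a Leydig marker outside the steroid list, was at 5.02 and 36.2 CPM in dKO XY and had 2 UMIs in the members. *Cyp17a1* was at 44.4 and 472 CPM in dKO XY and at 5.42 and 6.22 CPM in the members (log2 fold change -5.62, adjusted p = 0.00126), and the part of Leydig cell RNA in the 6 of 11 steroid genes that were lower in XX was not tested.

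Of the 7 granulosa markers tested, 2 were higher in the XX members, 1 lower and 4 not called, with a median log2 fold change of 0.31. Over all genes 6.17% were higher and 10.5% lower. *Irx3* was at 281 and 356 CPM in XX and at 139 and 75.2 CPM in dKO XY (log2 fold change 1.42, SE 0.25, adjusted p = 0.00313). *Cdkn1b* was at 720 and 748 CPM against 285 and 281 CPM (log2 fold change 1.22, SE 0.14, adjusted p = 0.000186). *Gng13* was at 365 and 536 CPM against 290.4 and 217 CPM, which did not pass the test (adjusted p = 0.0591). *Runx1* was at 196 and 142 CPM against 116 and 130 CPM (adjusted p = 0.34), *Wnt4* at 578 and 533 CPM against 394 and 434 CPM (adjusted p = 0.212), and *Kctd14* at 1870.0 and 1661 CPM against 1977 and 2174 CPM (adjusted p = 0.0813). *Rspo1* was the 1 that was lower in XX, at 244 and 225 CPM against 360.0 and 308 CPM (log2 fold change -0.66, adjusted p = 0.0127), and the call was lost without control XX replicate 2 (adjusted p = 0.0768) or without dKO XY replicate 1 (adjusted p = 0.0773).

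**Figure D5:**
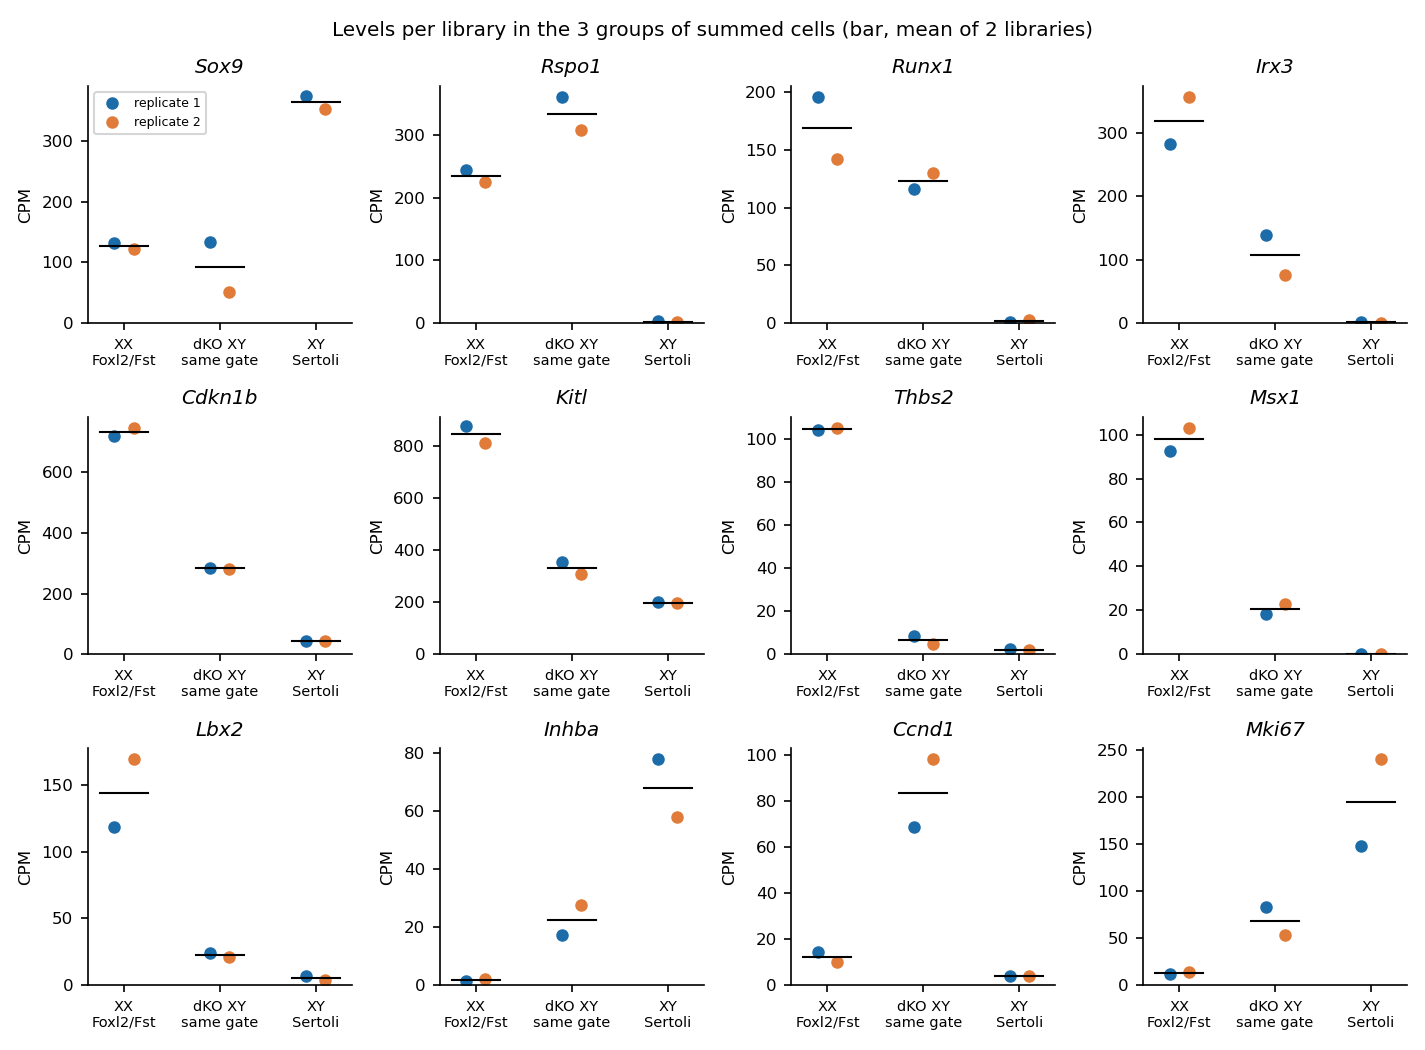
CPM of 12 genes in the XX members, the dKO XY cells of the same gate and control XY Sertoli cells. The axis is linear, with 1 point per library. *Cdkn1b* lay at 720 and 748 CPM in XX, 285 and 281 CPM in dKO XY and 41.6 and 43.1 CPM in control XY.

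Of the 12 transcription factor genes, 3 were higher and 3 lower in XX, against 6.17% and 10.5% of all genes (median -0.20). *Emx2* was at 248 and 206 CPM against 95.8 and 101 CPM in dKO XY (log2 fold change 1.06, adjusted p = 0.000867). *Esr2*, an estrogen receptor gene, was low in both, at 1.91 and 1.06 CPM against 5.81 and 10.2 CPM. *Nr0b1*, which encodes the nuclear receptor DAX1, was at 18.3 and 19.3 CPM against 35.9 and 43.5 CPM, a call that was lost among cells of at most 900 CPM (adjusted p = 0.109). In the WNT list 5 of 15 were higher and 2 lower, against the same 6.17% and 10.5% (median 0.06). The 5 were *Nkd1*, *Sp5*, *Axin2*, *Rnf43* and *Lef1*. *Nkd1* was at 117 and 124 CPM against 58.9 and 47.9 CPM (log2 fold change 1.02, adjusted p = 0.000884). *Sp5* was at 75.2 and 97.1 CPM against 42.8 and 24.7 CPM, and *Axin2* at 85.4 and 67.7 CPM against 35.9 and 42.5 CPM. The call of *Rnf43* (24.2 and 20.8 against 8.45 and 11.7 CPM) was lost without dKO XY replicate 1 (adjusted p = 0.0788) and among cells of at most 900 CPM of *Foxl2* and *Fst* (adjusted p = 0.0746). That of *Lef1* was lost without control XX replicate 1, control XX replicate 2 or dKO XY replicate 2 (adjusted p = 0.138, 0.0601 and 0.254), and under 7 further settings, DESeq2 among them. The receptor gene *Lgr4* was at 176 and 177 CPM against 151 and 155 CPM (adjusted p = 0.811).

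In the activin, inhibin and BMP list, 1 of 19 genes was higher and 3 lower (median 0.13), near the shares of 6.17% and 10.5% over all genes. *Inhba* was at 1.39 and 2.25 CPM in XX and at 17.2 and 27.6 CPM in dKO XY (log2 fold change -3.85, adjusted p = 2.89e-05), between the levels of the XX members and of control XY Sertoli cells. *Inha* was at 116 and 124 CPM against 188 and 225 CPM, and *Bmp4* at 5.34 and 6.09 CPM against 23.8 and 23.5 CPM. *Bmp2* was at 35.6 and 44.7 CPM against 51.7 and 30.8 CPM and was not called. *Id1* differed more between the dKO XY libraries, at 1016 and 192 CPM, than between the groups. Of the 12 Notch genes, 6 were lower in XX and none higher (median -1.12). *Heyl* was at 1.25 and 2.71 CPM against 20.1 and 25.4 CPM (log2 fold change -3.80, adjusted p = 2.97e-05) and *Jag1* at 1.63 and 2.91 CPM against 12.7 and 20.3 CPM.

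Of the 12 S phase and mitosis genes, 10 were lower in the XX members and none higher, with a median of -1.74. *Mki67* was at 11.8 and 13.9 CPM in XX and at 82.6 and 52.7 CPM in dKO XY (log2 fold change -2.56, adjusted p = 0.000107), and *Top2a* at 21.5 and 24.4 CPM against 91.9 and 86.3 CPM. Of 10 CDK inhibitor and cyclin genes, 2 were higher and 1 lower, against 6.17% and 10.5% of all genes (median 0.23). *Ccnd1*, the cyclin D1 gene, was at 14.3 and 9.86 CPM against 68.6 and 98.3 CPM (log2 fold change -2.91, adjusted p = 1.54e-05). *Cdkn1c* was at 1358 and 1478 CPM against 832 and 722 CPM (adjusted p = 0.00572), a call lost without dKO XY replicate 2 (adjusted p = 0.0585) and with a gate of at least 500 CPM of *Foxl2* and *Fst* (adjusted p = 0.0554).

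Of the 9 genes for germ cell signals and junctions, 4 were higher and 1 lower, against 6.17% and 10.5% of all genes (median -0.21). *Kitl* was at 877 and 811 CPM in XX and at 353 and 307 CPM in dKO XY (log2 fold change 1.20, adjusted p = 0.000293). *Npr2* rose 2.89-fold and the tight junction gene *Tjp1* 1.83-fold. Of 13 retinoic acid genes, 2 were higher and 1 lower, against the same 6.17% and 10.5% (median -0.09). *Dhrs3* was at 92.4 and 96.9 CPM against 48.3 and 40.3 CPM. *Cyp26b1* was at 0.218 and 0.529 CPM against 3.96 and 23.8 CPM, a level that was uneven between the dKO XY libraries.

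In the Sertoli list 1 of 12 genes was higher and 5 lower, against 6.17% and 10.5% of all genes (median -0.86). *Cst9*, a cystatin of fetal Sertoli cells, was at 2.72 and 2.45 CPM in XX and 63.1 and 50.8 CPM in dKO XY (log2 fold change -4.59, SE 0.20, adjusted p = 3.27e-07). *Dhh* was at 0.681 and 0.529 CPM against 11.4 and 10.5 CPM (log2 fold change -4.24, adjusted p = 2.71e-06), and *Dmrt1* at 0.409 and 0.331 CPM against 2.64 and 3.81 CPM. *Sox9* was at 133 and 123 CPM in XX and at 134 and 52.0 CPM in dKO XY, a log2 fold change of 0.29 (SE 0.31) that was not called (adjusted p = 0.57). *Aard* was at 261 and 274 CPM against 181 and 169 CPM (adjusted p = 0.088). Thus *Dhh*, *Dmrt1* and *Cst9* were higher in the dKO XY than in the XX cells. The part of free RNA from Sertoli cells in these 3 genes was not tested. The dKO XY level of *Sox9* in replicate 1 matched the XX members, whereas that in replicate 2 lay below them.

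Among called genes whose log2 CPM averaged 5 or more, the largest rises in the XX members were those of *Thbs2*, *Hist3h2ba*, *Lbx2* and *Plk2*. *Thbs2*, thrombospondin 2, was at 104 and 105 CPM in XX and at 8.18 and 4.44 CPM in dKO XY (log2 fold change 3.87, SE 0.22, adjusted p = 2.67e-06). *Plk2* was at 135 and 129 CPM against 22.7 and 20.3 CPM, and *Lbx2*, a homeobox gene, at 119 and 170 CPM against 23.8 and 20.9 CPM. *Msx1* was at 92.8 and 103 CPM against 18.2 and 22.8 CPM (log2 fold change 2.11, adjusted p = 3.75e-05). *Shtn1*, which was also high in members relative to *Lgr5* cells, was at 87.9 and 70.6 CPM against 17.4 and 18.7 CPM. The largest falls by the same rule were of *Etd*, *Ren1*, *Fbln2* and *Rtn4rl1* among others. The average log2 CPM was taken over all 6 libraries, and *Etd*, *Ren1* and *Rtn4rl1* reached it through the control XY Sertoli cells. In dKO XY, *Ren1* was at 24.0 and 7.93 CPM and *Rtn4rl1* at 9.77 and 13.96 CPM. *Fbln2*, the matrix protein fibulin 2, was at 7.03 and 5.82 CPM in XX and at 96.4 and 113 CPM in dKO XY (log2 fold change -4.15, adjusted p = 1.49e-06). *Etd* had 2 UMIs in the XX members and was at 8.71 and 7.61 CPM in dKO XY, a ratio of 213 with a counting interval from 56.3 to 1800.0.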

How the data were processed

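Single cell libraries were made on the 10x Genomics platform from dissociated, cryopreserved gonads in C57BL/6 background. The deposited files hold unnormalized UMI counts per gene and cell barcode, which the authors made with Cell Ranger and corrected for swapped barcodes. The submitters' processing notes name mm10, which is GRCm38, and coordinates are those of GENCODE M21 on that build. A gene missing from the list of a library was counted as 0. The members, gates and gene lists were chosen with earlier results of these data known.

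UMIs were summed over the gated cells of each library and tested with edgeR 4.0.16 (filterByExpr, TMM, glmQLFit, glmQLFTest) in R 4.3.3, with genotype as the only factor and the 3 groups sharing one estimate of the spread. Summed depth was 36717896 and 15116149 UMIs for control XX, 7267886 and 14975410 for control XY and 3788411 and 3152581 for dKO XY. P-values were adjusted by Benjamini-Hochberg over all genes tested and called under 0.05. Standard errors were derived from each log2 fold change and its F statistic. The tests were checked on simulated data. Scrublet in scanpy 1.11.5 marked between 0 and 69 kept cells per library. No doublets were removed, so that 25 marked cells remain among the members of control XX replicate 1, and in an alternative the top 8% of each library by doublet score were dropped.

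Ratios within the ovary used 1 CPM added to both values and genes of at least 50 CPM in both libraries, and have no test. Named genes are the markers, members of 21 fixed lists, and for each test the 10 largest rises and falls among called genes whose log2 CPM averaged 5 or more, without gate genes, *Xist*, *Tsix* and Y-linked genes. Some genes of this rule are not reported here. *Col18a1*, *Calb1*, *Igfbp5* and the splits of the members were chosen after values were seen. Alternatives were DESeq2 1.42.0, other gates and filters, a replicate block, the 2 compared groups alone, and each library left out. Alternatives without *Lgr5* UMIs, without stromal or haemoglobin transcripts, or with at most 900 CPM of *Foxl2* and *Fst* were chosen after seeing the data.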

Additional observations from a re-analysis of the deposited data

How the results depend on the processing

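The counts against Sertoli cells stayed within 1.5 times of the reported ones under all alternatives run. Leaving out each library in turn gave between 2524 and 3833 genes higher in XX and between 2471 and 3646 lower. Against dKO XY cells, the 873 genes higher in XX became 1477 without a filter on low counts and 536 with at most 900 CPM of *Foxl2* and *Fst*, where the 1487 lower genes became 825. The latter alternative, chosen after seeing the data, has fewer cells. Leaving out each library gave between 501 and 862 genes higher, the lowest without dKO XY replicate 2, and between 1033 and 1386 lower. The mean log2 ratio of *Gng13* to the *Lgr5* cells, -1.97, became -2.37 in members without an *Lgr5* UMI and -1.84 as a mean of CPM over cells, and lay between -2.04 and -1.90 with 1 library. The mean cycling share of 8.54% became 22.9% when 1 UMI sufficed. With the replicate number as a replicate block, 3257 genes were higher and 3133 lower against Sertoli cells, and 758 and 1337 against dKO XY cells. The numbers share only a name, since the labels give no shared litter, and the replicate differences of 14140 genes correlated at -0.134 between XX and XY, -0.11 between XX and dKO XY and -0.016 between XY and dKO XY. Of the calls of named genes, the block changed that of *Znrf3* against Sertoli cells. Over all settings, no checked gene that was called in the main or the alternative fit reversed direction. Reversals of genes called in neither fit were not counted. Against Sertoli cells, 1640 values kept their side of the threshold, 19 lost it and 1 gained it, and against dKO XY cells 1173 kept it, 30 lost it and 20 gained it. Depth limits the dKO XY cells most, with 150 and 107 cells.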
